A study of Mus musculus with 24 samples.

Results

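Myoblast fusion and adhesion genes were followed through differentiation and dexamethasone treatment of C2C12 cells, an established line of mouse skeletal myoblasts. The set held 10 genes, taken by name from the 48544 genes of the deposited tables: Mymk, Mymx, Cdh15, Cdh2, Ncam1, Jam2, Jam3, Myof, Dysf and Cav3. Mymk and Mymx stand in the tables under the older names Tmem8c and Gm7325 and were found by their gene identifiers. All 10 passed the filter on low values described with the processing.

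Polyadenylated RNA was sequenced in 24 libraries of wild-type cells, in 6 groups of 4. Day 0 myoblasts were harvested near confluence in medium with 10% serum. Day 7 myotubes had then spent 7 days in medium with 2% serum. From day 7, the remaining cultures received either vehicle medium with 1% ethanol or medium with 100 µM dexamethasone, a synthetic glucocorticoid, and were taken after 24 h or 72 h. Serum stayed at 2% in both media. The ethanol content of the dexamethasone medium is not recorded in the sample information used, so ethanol may differ between the media. All groups share 1 cell line. Nothing in the labels tells whether the 4 replicates of a group were grown separately, and p-values then measure only the spread between these libraries, which may be technical.

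A muscle fibre forms when committed myoblasts leave the cell cycle, recognise and adhere to one another, and fuse their plasma membranes. Cadherins, NCAM and the junctional adhesion molecules act at the contact between cells. The muscle-specific membrane proteins myomaker and myomixer then carry out the merging of the membranes, and the ferlins and caveolin-3 serve vesicle traffic, membrane repair and the sarcolemma of the new fibre. In culture, C2C12 myoblasts form multinucleated myotubes when serum is lowered.

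Levels are given as TPM, the usual transcript abundance scaled by gene length and library total, and can be compared between genes. Differences are on the scale of the authors' deposited log2 values, tested with limma, and a gene was called where the adjusted p (Benjamini-Hochberg over 16257 genes) was under 0.05. The 2 scales are not interchangeable. Across 12737 genes, the differentiation difference in the log2 table had a slope of 0.64 on that in log2 TPM, so folds below are TPM folds. Of the whole series, 60.3% of genes were called between day 7 and day 0, 25.4% between dexamethasone and vehicle at 24 h and 30.3% at 72 h. The labels held against their markers: the summed TPM of 12 myotube genes was 527 to 794 at day 0 and 15600.0 to 17021 at day 7, while 8 proliferation genes fell from between 1446 and 1555 to between 192 and 394. Summed TPM of 5 endothelial genes stayed at or below 0.53 in every library.

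Both replicate 1 libraries at 72 h stood apart. Of 18 genes at 2 TPM or more in the other dexamethasone 72 h libraries and at 5% of that or less in the other vehicle 72 h libraries, the vehicle replicate 1 library held a median of 13.8% of the level in dexamethasone replicate 1, against 0.476% in the others. In the opposite direction, over 18 genes chosen alike, the dexamethasone replicate 1 library held 19.8%, against 0.802%. That dexamethasone library was also the lowest of its group for 9 of the 10 fusion and adhesion genes and the highest for Jam3. Such extremes are not particular to it. Day 0 replicate 2 was the lowest of its group for 8, and day 0 replicate 3 and dexamethasone 72 h replicate 2 were the highest for 8 each. In 9 other libraries the measure rested on only 1 to 4 genes and spread from 0 to 128%, so it says little there, and in the 4 vehicle 24 h libraries, over 21 to 25 genes, it was 0.487 to 0.878%. Tested differences, ratios and correlations that involve 72 h libraries are therefore also given without this pair, while levels, sums and ranks include it.

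Promoter sequences, 250 bases before to 50 bases after the annotated start, were examined for 4 of the 10 genes: Cdh15, Myof, Dysf and Cav3. Cdh2 was left out of this search by its chromosome, and no promoter was at hand for Mymk, Mymx, Ncam1, Jam2 and Jam3. They come from RefSeq on GRCm38.p6, an older build than the GRCm39 named in the submitters' processing notes. E-boxes, written CANNTG and searched on both strands, are sites of bHLH factors in general, the myogenic ones among them. Of 32851 promoters of this length, 72.3% hold at least 1, and the median count is 1. Sequences are printed for Cav3, with the largest rise in differentiation, for Myof, with the largest dexamethasone difference, and for Cdh15, with the most E-boxes among these 4. Capitals mark the E-boxes.
Cav3, chr6:112459255-112459554, plus strand: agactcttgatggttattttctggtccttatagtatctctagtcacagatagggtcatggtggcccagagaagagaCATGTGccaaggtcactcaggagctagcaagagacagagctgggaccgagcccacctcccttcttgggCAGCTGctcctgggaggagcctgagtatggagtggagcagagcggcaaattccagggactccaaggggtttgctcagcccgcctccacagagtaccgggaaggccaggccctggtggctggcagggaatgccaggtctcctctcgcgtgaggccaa
Myof, chr19:38043528-38043827, minus strand: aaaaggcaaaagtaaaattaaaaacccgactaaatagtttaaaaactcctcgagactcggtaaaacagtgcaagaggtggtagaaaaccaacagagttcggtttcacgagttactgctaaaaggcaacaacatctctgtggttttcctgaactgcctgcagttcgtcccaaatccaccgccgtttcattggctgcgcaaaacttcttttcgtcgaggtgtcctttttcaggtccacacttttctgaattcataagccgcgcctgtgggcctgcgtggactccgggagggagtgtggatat
Cdh15, chr8:122848124-122848423, plus strand: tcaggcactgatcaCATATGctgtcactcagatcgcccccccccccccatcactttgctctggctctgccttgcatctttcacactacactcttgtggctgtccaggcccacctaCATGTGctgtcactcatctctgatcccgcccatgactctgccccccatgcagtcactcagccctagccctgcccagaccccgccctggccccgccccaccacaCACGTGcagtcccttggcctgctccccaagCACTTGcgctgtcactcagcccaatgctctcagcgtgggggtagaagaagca

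The Cav3 promoter holds 2 E-boxes, and that at base -106 from the start reads CAGCTG, a form present in 16.3% of promoters. It also holds the MCAT motif CATTCC, found in 14.7%. The Cdh15 promoter holds 4 E-boxes, and 17.6% of promoters hold 3 or more. Myof has none in its window. Of the 2 Dysf promoters, the upstream one holds none and the downstream one holds 1 E-box and 2 copies of AGAACA, the half-site of the glucocorticoid receptor, which 19.0% of promoters contain. The full palindromic response element, AGAACA and TGTTCT with 3 bases between, is in none of these windows and in 3 of all 32851 promoters. A match describes letters in the window and not binding.

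Differentiation raised the fusogens and lowered Myof and Jam2. Of the 10 genes, 8 were called higher and 2 lower at day 7, where 30.5% and 29.8% of all genes tested were called in these directions. The median difference was 0.86 over the 10 genes and 0.015 over all genes. Fewer cells of a type and less RNA per cell cannot be told apart in these bulk libraries. Markers of other cells were read in the same comparison, where 60.3% of all genes tested were called in either direction. The summed TPM of 9 fibroblast genes was 894 to 1328 at day 0 and 2137 to 3066 at day 7, with 4 of 7 tested called higher, although Tcf21 was listed at 0 in all libraries and the mean of Thy1 was at most 0.089 TPM in any group. Of 9 reserve or satellite cell genes the sum went from between 248.7 and 381.6 to between 166 and 212, with 1 of 7 tested called higher and 4 lower. That of 5 nerve or glia genes went from between 69.4 and 134 to between 16.9 and 30.5, nearly all of it the tubulin Tubb3, the 1 called lower. Of 4 adipocyte and 6 smooth muscle genes tested, 1 each was called lower, and 1 of 3 macrophage genes higher. The part of these cells in the members' differences was not tested.

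Mymk encodes myomaker, the membrane protein needed on both partners of a fusion. Its TPM was 28.7, 19.0, 32.6 and 20.1 in the day 0 libraries and 683, 693, 888 and 686 at day 7. The groups were far apart, at 25.1 ± 6.63 and 738 ± 100.3 (SD, n = 4), a 29.4-fold rise (log2-table difference 2.71 ± 0.084, SE; limma adjusted p = 1.37e-16). Mymx encodes myomixer (also called myomerger or minion), the micropeptide that completes the fusion pore. It gave 7.99, 5.22, 8.99 and 8.18 TPM at day 0 and 215, 256, 234 and 237 at day 7. This 31.0-fold rise was of the same order as that of Mymk (2.91 ± 0.091; limma adjusted p = 1.37e-16). Both transcripts were present in every day 0 library, before serum was lowered.

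Among the adhesion genes, the immunoglobulin-family molecule Ncam1 rose most. Its TPM went from 61.1, 52.8, 74.5 and 48.8 to 373, 378, 624 and 505. That is 7.93-fold (1.83 ± 0.12; limma adjusted p = 1.54e-11). Cdh15, the muscle cadherin M-cadherin, stood at 129.7, 54.3, 133 and 115 TPM in myoblasts and 157, 138, 184 and 144 in myotubes. The rise was 1.44-fold (0.47 ± 0.12; limma adjusted p = 0.00166), and without the low day 0 replicate 2 library the difference was 0.30 (adjusted p = 0.0062). Cdh2, N-cadherin, was 67.0 ± 8.13 TPM in myoblasts and 94.5 ± 17.8 in myotubes, with no overlap (0.39 ± 0.13; limma adjusted p = 0.00996). The same gene missed the threshold when TPM was tested (adjusted p = 0.0594). M-cadherin was thus above N-cadherin in 3 of 4 myoblast libraries and in all 4 myotube libraries.

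The paired receptors Jam2 and Jam3, which bind each other across the contact, did not go together. Jam2 was 83.7, 44.2, 85.4 and 74.1 TPM at day 0 and 43.5, 36.1, 41.8 and 44.6 at day 7. Its mean fell 1.73-fold (-0.46 ± 0.11; limma adjusted p = 0.0012), although day 0 replicate 2 lay among the myotube libraries. Jam3 was 17.8 ± 3.24 TPM in myoblasts and 20.6 ± 1.80 in myotubes, with overlapping libraries. Its difference of 0.21 ± 0.083 was just under the threshold (limma adjusted p = 0.0319). That call was lost in 8 of 15 alternatives, among them leaving out day 7 replicate 1 (0.0998) or 4 (0.0507) or day 0 replicate 2 (0.0659), 3 (0.0899) or 4 (0.0719).

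The ferlins moved in opposite directions. Myof encodes myoferlin, a calcium-sensing C2-domain protein prominent in prefusion myoblasts, and its TPM was 102, 70.3, 114 and 96.2 at day 0 and 46.0, 40.2, 61.3 and 48.3 at day 7. Each myotube library was below each myoblast library, a 1.95-fold fall (-0.60 ± 0.10; limma adjusted p = 2.22e-05). Dysf encodes dysferlin, its relative in sarcolemmal repair. Dysf had 6.21, 3.77, 6.22 and 4.78 TPM in myoblasts and 15.1, 17.3, 26.7 and 18.0 in myotubes, a 3.67-fold rise (1.25 ± 0.11; limma adjusted p = 1.95e-09). Myof stayed the more abundant of the pair in every library of the series. The widest change belonged to Cav3, caveolin-3, the caveolin of the muscle sarcolemma. Cav3 was at 0.262, 0.985, 0.910 and 0.225 TPM in myoblasts and at 115, 154, 130.1 and 128 in myotubes, 221-fold apart (3.53 ± 0.12; limma adjusted p = 5.35e-16). With a day 0 level under 1 TPM, that fold is imprecise.

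**Figure D1:**
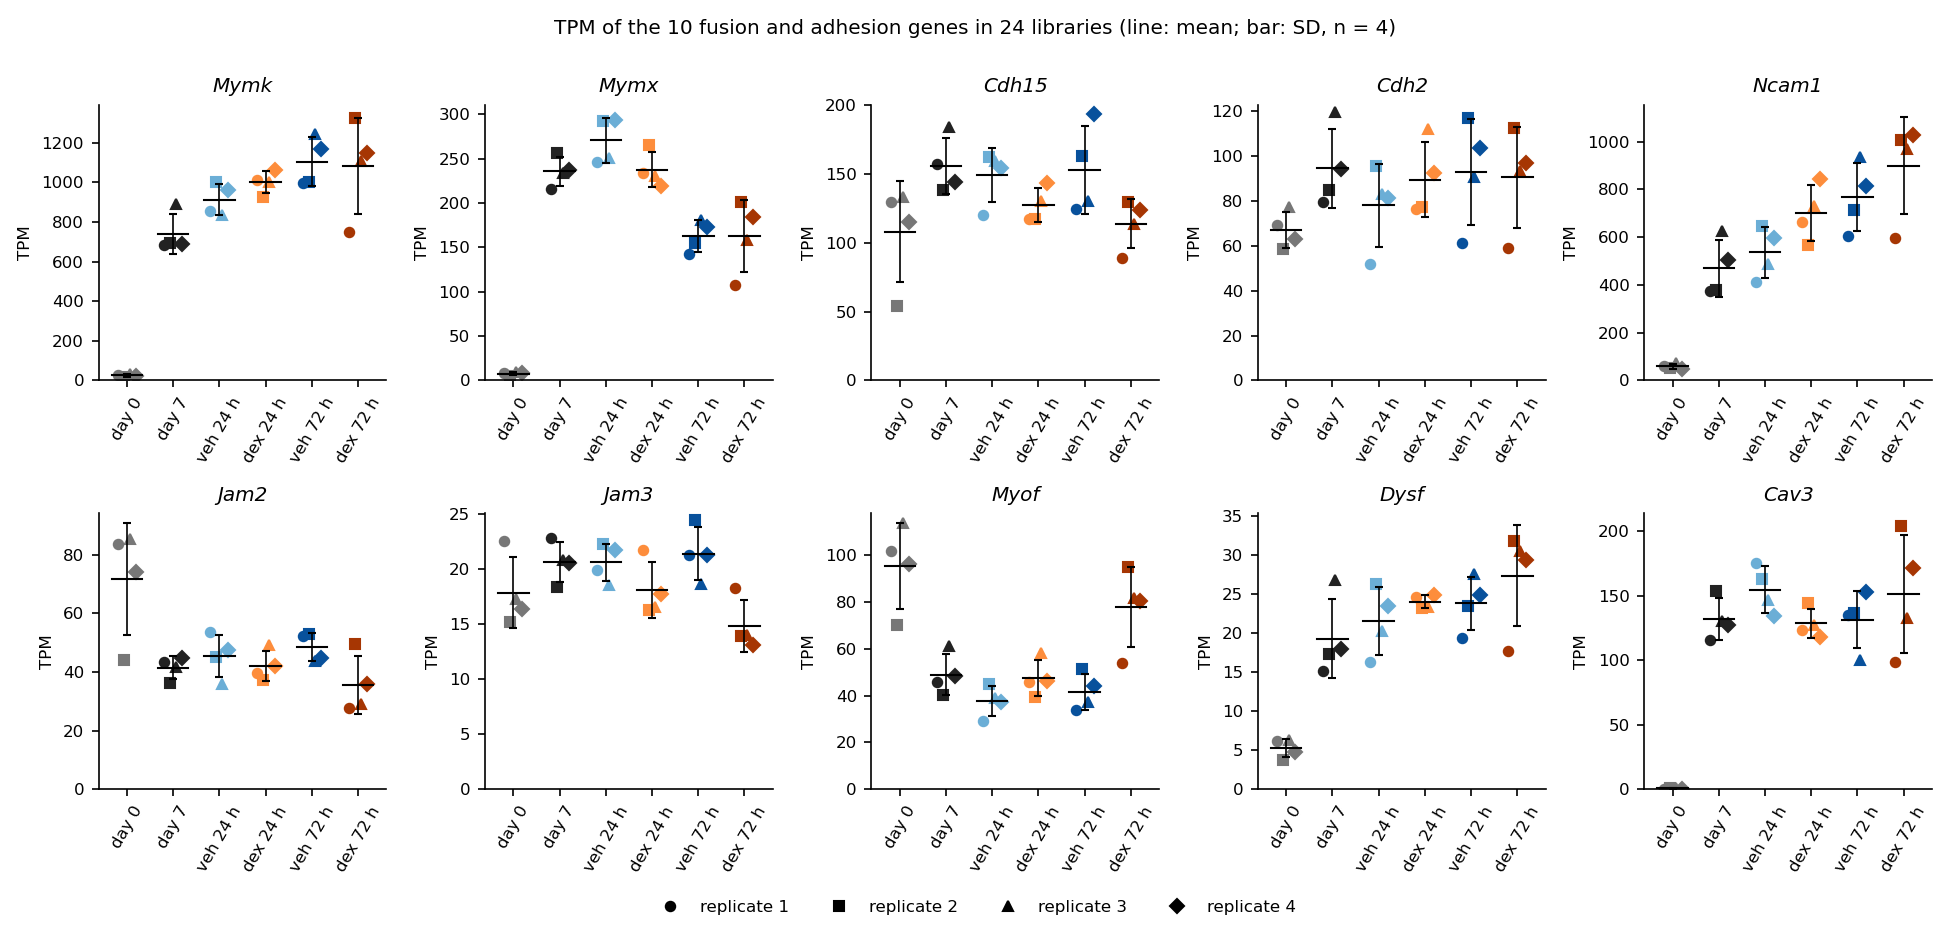
TPM of each gene (y axis, linear from 0) in the 6 groups (x axis), with 1 symbol per library by replicate number, the mean as a line and the SD as a bar (n = 4). Mymk, Mymx, Ncam1, Dysf and Cav3 at day 0 lie below every later library, Mymx steps down at 72 h in both media, and Myof under dexamethasone at 72 h (54.1 to 95.0) lies above vehicle (33.9 to 51.3).

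In order of mean level, Mymk led the set in every group from day 7 on and Cdh15 led it at day 0. The summed TPM of the 10 genes was 458 ± 98.8 at day 0 and 1955 ± 260 at day 7, with the highest mean, 2656 ± 587, under dexamethasone at 72 h. When each gene's groups were ranked by mean, neighbours in rank had overlapping libraries with few exceptions. Day 0 was separate from the next group for Mymk, Mymx, Ncam1, Dysf and Cav3, and Mymx also had a gap between its 72 h groups and the other myotube groups.

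Between day 7 myotubes and vehicle myotubes after 24 h, none of the 10 genes was called by limma, where 0.209% of all genes were, and 2 of 10 had an unadjusted p under 0.05. The 34 genes behind that share became 0 to 328 on leaving out single libraries. The ratio of Dysf to Myof, given with the other ratios, did not overlap between these groups. No member was called when TPM was tested. Mymk averaged 738 ± 100.3 TPM at day 7 and 913 ± 80.2 in vehicle at 24 h, and Ncam1 469.9 ± 119 and 536 ± 107, with overlapping libraries in each case.

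From 24 h to 72 h in vehicle, Mymx was the 1 member called, where 4.36% of all genes were called, 2.67% higher and 1.69% lower. Its TPM was 247, 292, 250.5 and 293 at 24 h and 142, 154, 181 and 173 at 72 h. No library overlapped between the times, and the mean fell 1.66-fold from 271 ± 25.6 to 163 ± 17.6 (-0.62 ± 0.091; limma adjusted p = 0.00972). Without both replicate 1 libraries at 72 h, the difference was -0.59 (adjusted p = 0.00329). The call held in all 16 alternatives, with adjusted p from 0.00329 to 0.0458. Mymk, its partner, was not called, with 854, 1001, 836 and 959 TPM at 24 h and 994, 1004, 1245 and 1167 at 72 h, a mean 1.21-fold higher. Ncam1 in the same libraries was 413, 648, 486 and 598 TPM and then 603, 714, 936 and 813, 1.43-fold higher on average and also not called. Without both replicate 1 libraries at 72 h, these differences were 0.12 (limma adjusted p = 0.334) for Mymk and 0.33 (0.0707) for Ncam1. Summed myotube markers spanned 18594 to 26245 TPM at 24 h and 15334 to 23132 at 72 h. Of these 12 markers, 1 was called lower (0 without both replicate 1 libraries at 72 h) and 0 higher.

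In the reported limma fit, without a replicate block, dexamethasone for 24 h left all 10 genes uncalled, against 25.4% of all genes. In that fit 3 of 10 had an unadjusted p under 0.05. With the replicate number as a block Jam3 was called, as given below. No member was called when TPM was tested. The median difference was -0.060 over the 10 genes and -0.0080 over all genes. This comparison shares the vehicle 24 h libraries with both vehicle comparisons above. Of the marker lists, some moved at 24 h and some did not. Of 4 tested adipocyte genes 3 were called higher, and the sum of the 8 listed was 159 to 229 TPM under dexamethasone and 31.5 to 44.4 in vehicle, led by Cebpa (136 and 24.8) and Fabp4 (38.0 and 0.145), with Adipoq and Plin1 under 0.1 TPM on average in every group. Summed fibroblast genes were at 1247 to 1468 TPM beside 2008 to 3354, with 3 of 7 called lower and Pdgfra higher. Reserve or satellite cell genes summed to 198 to 234 TPM beside 163 to 194, with 1 of 7 called higher and 3 lower. In smooth muscle 2 of 6 were called higher, in myotube markers 2 of 12 higher and in macrophage 1 of 3 lower, and none of 8 proliferation or 3 nerve or glia genes was called. The part of these cells in the 24 h values of the members and of the lists below was not tested.

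For the fusogens at 24 h, Mymk was 1013.5, 926, 1001 and 1063 TPM under dexamethasone beside 854, 1001, 836 and 959 in vehicle. The difference was 0.023, with a 95% interval of -0.15 to 0.20 (limma adjusted p = 0.868). Tested as log2(TPM + 0.1), the interval spans 0.867 to 1.39-fold. Mymx was 233, 265, 231 and 219 TPM beside 247, 292, 250.5 and 293, lower in 4 of 4 same-numbered libraries, with overlap. The difference was -0.21, 95% interval -0.40 to -0.023 (limma adjusted p = 0.0912). It passed the threshold when only these 8 libraries entered the fit (adjusted p = 0.0419).

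Cav3 gave 124, 145, 127 and 118 TPM under dexamethasone at 24 h and 175, 163, 147 and 134 in vehicle, a difference of -0.27 ± 0.12 that missed the threshold (limma adjusted p = 0.114) except in the fit of these 8 libraries (0.048). Jam3 was 21.7, 16.2, 16.5 and 17.7 TPM beside 19.9, 22.2, 18.5 and 21.7. Its difference of -0.21 ± 0.083 was not called (limma adjusted p = 0.0709), but was called with the replicate number as a block (0.0127), after quantile normalization (0.0432) and without dexamethasone replicate 1 (0.0169). Cdh15 had a difference of -0.23 (0.163), Jam2 of -0.14 (0.365), Ncam1 of 0.21 (0.207), Myof of 0.15 (0.277), Cdh2 of 0.076 (0.69) and Dysf of 0.052 (0.758), with limma adjusted p in brackets. Leaving out single libraries moved Jam2 between -0.20 and -0.067, Myof between 0.079 and 0.20 and Mymk between 0.0062 and 0.047, all uncalled.

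At 72 h of dexamethasone, 1 of the 10 genes was called higher and 2 lower, where 15.2% of all genes were called in each direction. The median difference was -0.0096 over the 10 genes and 0.0056 over all genes. Myof had the largest difference. Its TPM was 54.1, 95.0, 81.8 and 80.6 under dexamethasone and 33.9, 51.3, 37.4 and 44.1 in vehicle. Every treated library was above every vehicle library, 1.87-fold by the means (0.61 ± 0.10; limma adjusted p = 8.06e-05). Without both replicate 1 libraries it was 1.94-fold (0.66; adjusted p = 3.7e-05). The call held in all 16 alternatives. At 77.9 ± 17.1 TPM, the treated libraries overlapped day 0 myoblasts (95.5 ± 18.3), and in both groups Myof was above the vehicle myotubes. They also overlapped day 7 myotubes (40.2 to 61.3), through dexamethasone replicate 1 at 54.1.

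Jam3 fell. It was 18.2, 13.9, 14.0 and 13.1 TPM under dexamethasone and 21.2, 24.4, 18.6 and 21.2 in vehicle at 72 h. The groups did not overlap and the mean was 1.44-fold lower (-0.35 ± 0.083; limma adjusted p = 0.00263). Leaving out both replicate 1 libraries gave 1.57-fold (-0.42; adjusted p = 0.000578), and the call held in all 16 alternatives. Jam2 was 27.8, 49.5, 29.0 and 35.9 TPM beside 52.2, 53.1, 43.9 and 44.9, lower in 4 of 4 same-numbered libraries. Its call rested on little (-0.30 ± 0.11; limma adjusted p = 0.0436). It was lost in 11 of 16 alternatives, including without both replicate 1 libraries (-0.21; adjusted p = 0.233) and on leaving out dexamethasone replicate 1 (0.113), 3 (0.15) or 4 (0.0653) or vehicle replicate 1 (0.116), 2 (0.0918) or 4 (0.0583).

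Markers of other cell states moved in the same comparison. All 8 proliferation genes were called higher, with a summed TPM of 243 to 630.2 under dexamethasone and 88.1 to 136 in vehicle at 72 h. Of 7 fibroblast genes tested, 6 were called lower, and the summed level of the 9 listed was 166 to 1134 TPM under dexamethasone and 2344 to 3621 in vehicle. Without both replicate 1 libraries the called numbers of these lists were again 8 and 6. Adipocyte genes summed to 118 to 170 TPM beside 37.3 to 63.9, with Cebpa and Fabp4 called higher, 2 of 4 with or without that pair. Reserve or satellite cell genes summed to 258 to 375 TPM beside 154 to 236, most of it Sdc4 (245 and 115), while 4 of 7 were called lower and 1 higher in both fits. Smooth muscle genes summed to 988 to 2043 TPM beside 1702 to 2364, with 1 of 6 called lower and 2 without the pair. Of nerve or glia genes 1 of 3 was called higher in both fits, the 1 endothelial gene tested was called lower in both, and no macrophage gene was called in either. Their part in the Myof and Jam3 differences was not tested. Myotube markers spanned 21252 to 25253 TPM under dexamethasone, with 3 of 12 called higher and 1 lower, and 7 and 1 without both replicate 1 libraries.

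Neither fusogen was called between the media at 72 h. Mymk was 749, 1326.5, 1108 and 1146 TPM under dexamethasone beside 994, 1004, 1245 and 1167 in vehicle (-0.020, 95% interval -0.20 to 0.15; limma adjusted p = 0.886). Mymx was 108, 201, 158 and 184 TPM beside 142, 154, 181 and 173, with a mean of 163 in both (-0.0059, 95% interval -0.20 to 0.18; limma adjusted p = 0.969). By TPM, these intervals allow 0.763 to 1.22-fold for Mymk and 0.775 to 1.24-fold for Mymx. Without the replicate 1 pair both differences changed sign, to 0.063 and 0.077, and stayed uncalled.

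Of the others at 72 h, Ncam1 stood at 596, 1005, 968 and 1026 TPM under dexamethasone and 603, 714, 936 and 813 in vehicle (0.17; limma adjusted p = 0.296). Dysf was 17.7, 31.7, 30.5 and 29.3 TPM beside 19.3, 23.4, 27.5 and 24.8 (0.14; 0.365). Both were called on leaving out dexamethasone replicate 1 alone, Ncam1 at 0.29 (adjusted p = 0.0497) and Dysf at 0.26 (0.0434), but not on leaving out both replicate 1 libraries (0.23 for Ncam1, adjusted p = 0.148, and 0.21 for Dysf, 0.128). Cdh15 was 114 ± 17.8 TPM beside 153 ± 32.0 and lower in 4 of 4 same-numbered libraries (-0.27; limma adjusted p = 0.0888). It was called after quantile normalization (0.0309), and was -0.26 without both replicate 1 libraries (adjusted p = 0.154). Cav3 differed by 0.14 (95% interval -0.11 to 0.39; limma adjusted p = 0.427). This value rose to 0.29 without both replicate 1 libraries (adjusted p = 0.0921) and ranged from 0.034 to 0.26 on leaving out single libraries. Cdh2 differed by -0.013 (-0.27 to 0.25; 0.954), and by -0.012 without the pair (0.955).

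Whether the dexamethasone response itself differed between 24 h and 72 h was tested as an interaction, in which 11.3% of all genes were called, 5.56% higher and 5.77% lower. Of the 10 genes, 1 was called. For Myof, the response was larger at 72 h by 0.46 ± 0.14 (95% interval 0.17 to 0.76; limma adjusted p = 0.0379), and by 0.51 without both replicate 1 libraries at 72 h (adjusted p = 0.011). That call was fragile. It was lost in 15 of 24 alternatives, among them the test on TPM (0.193). Leaving out 1 library lost it for replicates 1, 2 and 4 of dexamethasone 24 h, 2, 3 and 4 of vehicle 24 h, 2, 3 and 4 of dexamethasone 72 h and 1 and 3 of vehicle 72 h, with adjusted p from 0.0534 to 0.0985. For Cav3 the interaction was 0.41 (adjusted p = 0.134), and it was called without both replicate 1 libraries (0.55; adjusted p = 0.028) or without dexamethasone 72 h replicate 1 (0.0264). For Mymx it was 0.21 (adjusted p = 0.328), and it was called without dexamethasone 72 h replicate 1 (0.32; adjusted p = 0.0427).

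**Figure D2:**
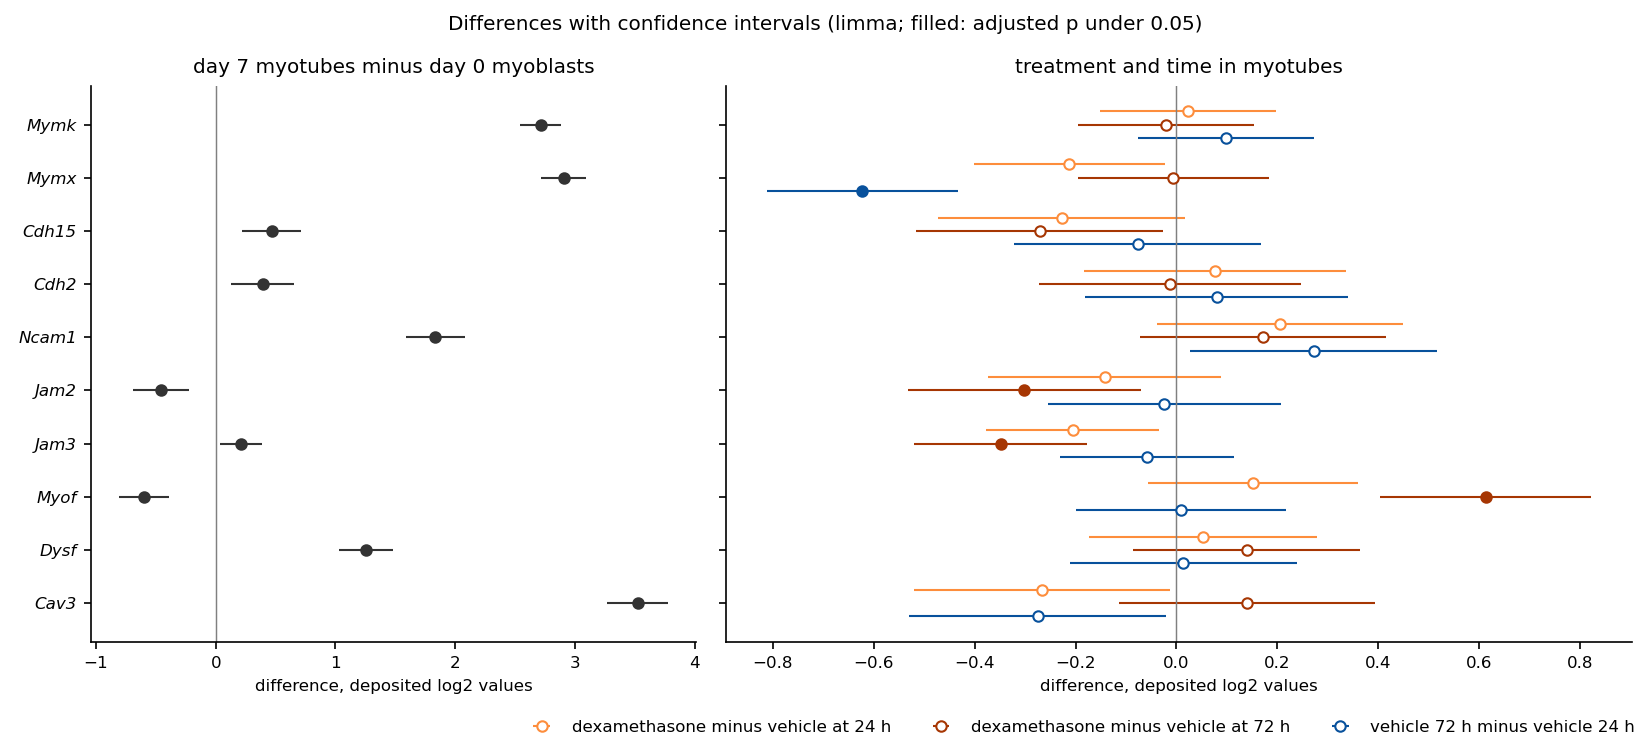
Difference of each gene (x axis, deposited log2 values) with its 95% interval from limma; filled symbols have an adjusted p under 0.05. Left, day 7 minus day 0, where Cav3 is at 3.53 and Myof at -0.60. Right, on a narrower axis, dexamethasone minus vehicle at 24 h and 72 h and vehicle 72 h minus 24 h, where the filled points are Mymx in vehicle (-0.62) and Myof (0.61), Jam3 (-0.35) and Jam2 (-0.30) under dexamethasone at 72 h.

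Ratios within a library cancel a factor that acts alike on both genes, and 3 pairs were compared in 5 contrasts by exact two-sided permutation of 4 against 4 libraries. The smallest p this allows is 0.0286, and none of the 15 tests passed after Benjamini-Hochberg adjustment, since the smallest adjusted value reached was 0.0714. The log2 ratio of Mymx to Mymk was -1.83, -1.84, -1.85 and -1.29 in the day 0 libraries and -1.67, -1.44, -1.93 and -1.53 at day 7. The difference was 0.062, within the spread (exact permutation p = 0.743; adjusted 0.857).

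In vehicle the same ratio was -1.79, -1.78, -1.74 and -1.71 at 24 h and -2.80, -2.70, -2.78 and -2.76 at 72 h. The difference of -1.01 was many times the pooled SD of 0.0414, with no overlap (exact permutation p = 0.0286; adjusted 0.0714). Mymx TPM was 0.297 of Mymk TPM at 24 h and 0.148 of it at 72 h. Under dexamethasone the ratio was -2.12, -1.80, -2.12 and -2.28 at 24 h, lower than vehicle by 0.33 (exact permutation p = 0.0286; adjusted 0.0714). At 72 h it was -2.80, -2.72, -2.81 and -2.63, close to vehicle, with a difference of 0.019 (exact permutation p = 0.714; adjusted 0.857). The dexamethasone replicate 1 library, low for both genes, had a ratio of -2.80 like its group. On leaving out the replicate 1 pair the difference was -0.99 between the vehicle times and 0.023 between the media at 72 h.

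The ratio of Cdh15 to Cdh2, M-cadherin to N-cadherin, was 1.21, 0.763, 0.937 and 0.926 on the log2 scale in vehicle at 24 h and 0.622, 0.599, 0.221 and 0.632 under dexamethasone. The difference was -0.44, without overlap (exact permutation p = 0.0286; adjusted 0.0714). At 72 h it was -0.38, with overlap (exact permutation p = 0.0857; adjusted 0.184), and -0.36 without both replicate 1 libraries. The log2 ratio of Dysf to Myof was -4.02, -4.19, -4.17 and -4.30 at day 0 and -1.60, -1.21, -1.20 and -1.42 at day 7, a difference of 2.81. It was higher than at day 7 by 0.55 in vehicle at 24 h, and differed by -0.71 between dexamethasone and vehicle at 72 h, each without overlap (exact permutation p = 0.0286 and adjusted 0.0714 for each). Dexamethasone libraries at 72 h had log2 ratios of -1.61, -1.58, -1.42 and -1.46, close to those of day 7. The difference at 72 h was -0.68 on leaving out the replicate 1 pair.

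**Figure D3:**
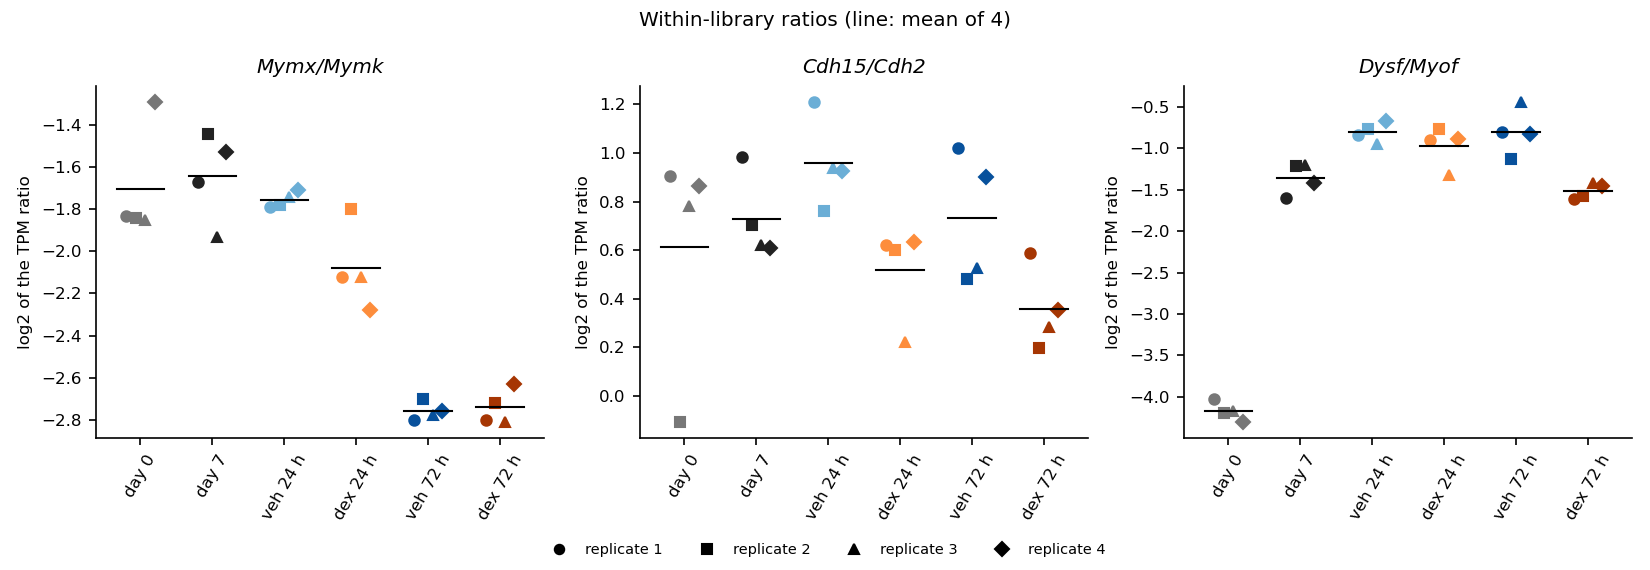
log2 ratio of TPM within each library (y axis) for 3 gene pairs in the 6 groups (x axis), with 1 symbol per library by replicate number and the group mean as a line. Mymx over Mymk lies between -2.81 and -2.63 in both 72 h groups and at or above -2.28 in all other libraries, and Dysf over Myof is below -4.0 at day 0.

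Across all 24 libraries Mymk followed Ncam1 (Pearson's r = 0.98), Cav3 (0.985), Dysf (0.978) and Mymx (0.955), all set largely by the step between day 0 and the rest. Over the 20 libraries from day 7 on, Mymk still followed Ncam1 (0.825), while its r with Mymx was -0.175. Ncam1 and Dysf had an r of 0.846 there, and Jam3 ran against Ncam1 (-0.738) and Myof (-0.712). Over the 18 libraries left without both replicate 1 libraries at 72 h, Mymk had an r of 0.859 with Ncam1 and -0.426 with Mymx, Ncam1 0.883 with Dysf, and Jam3 -0.74 with Ncam1 and -0.709 with Myof. These values describe libraries that share groups and, for some, a library-wide deviation, and carry no test.

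**Figure D4:**
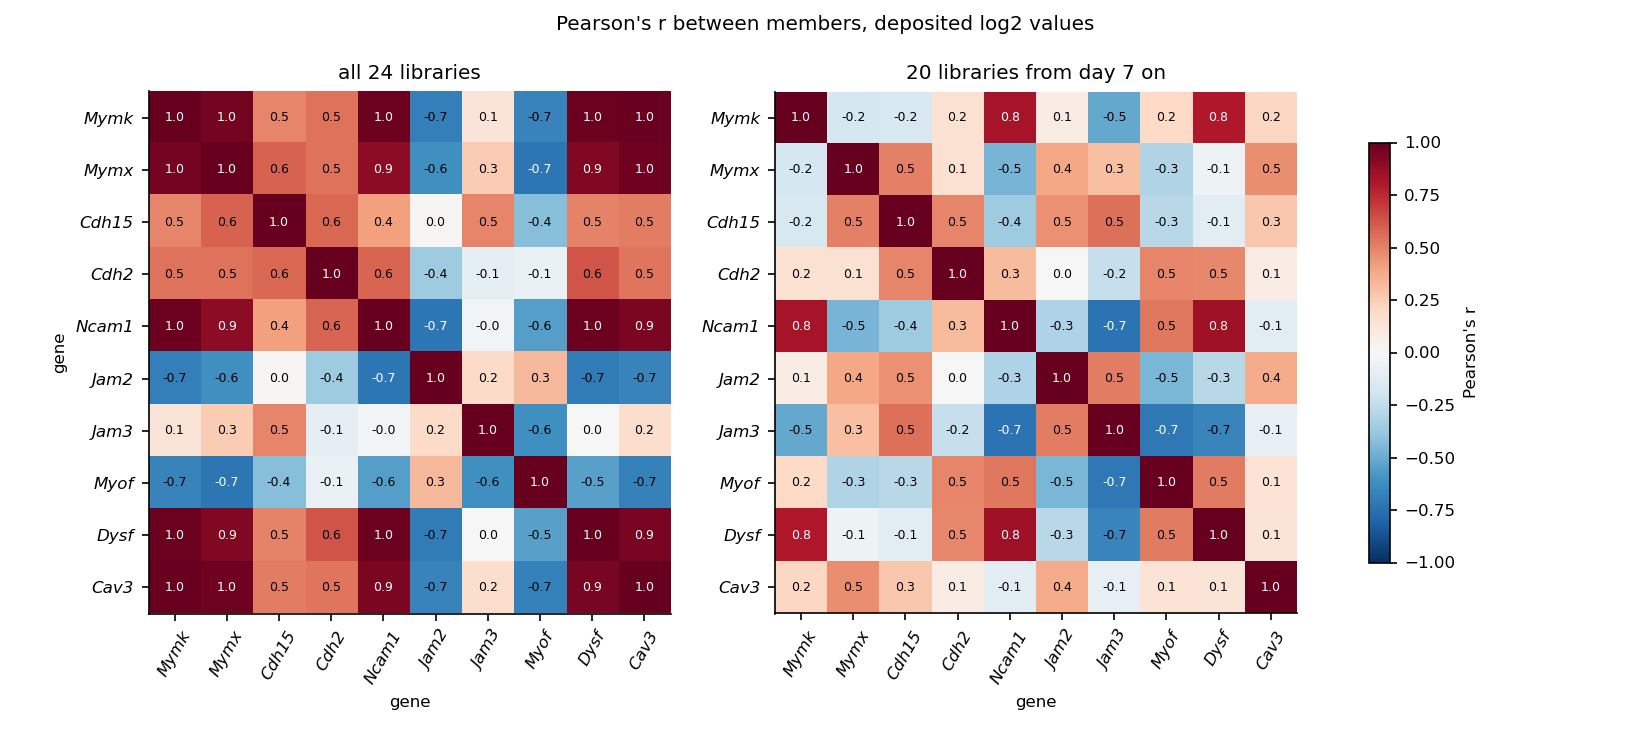
Pearson's r (colour scale and printed value) between each pair of genes over all 24 libraries (left) and over the 20 libraries from day 7 on (right), on deposited log2 values. Mymk and Mymx have an r of 0.955 on the left and -0.175 on the right, and Jam3 against Myof is at -0.712 on the right.

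Among 12049 candidate genes, those most like Mymk over 24 libraries included Lmod3 (r = 0.997), which encodes a leiomodin of the thin filament, and Mybph (0.997). Over the 20 libraries from day 7 on, Lmod3 again ranked first (0.885). Mymx was most like BC051019 in both sets (0.989 and 0.871). Ncam1 was nearest to Tmem182 (0.992), Cav3 to Fn3k and Klhl40 (both 0.993), Dysf to Fitm2 and Inppl1 (both 0.988) and Myof to Hsp90aa1 and Iffo2 (both 0.949). Over the 20 libraries, Jam3 was nearest to B2m (0.966), which encodes the light chain of MHC class I, Olfml2b (0.964) and H2-T22 (0.948). Cdh15 was nearest to Kdm1a (0.926), Cdh2 to Nln (0.881) and Jam2 to Armt1 (0.771) in that set. Over the 18 libraries without the replicate 1 pair, Cdh2 was again nearest to Nln (0.866), whereas the nearest gene became Tmem109 for Mymk (0.922), Mrpl34 for Mymx (0.883), Olfml2b for Jam3 (0.969), Pald1 for Cdh15 (0.921) and Rad51d for Jam2 (0.742). It was also another gene for those named above over 24 libraries only: Usp13 for Ncam1 (0.97), Yars2 for Cav3 (0.894), Nploc4 for Dysf (0.905) and Slc25a24 for Myof (0.956).

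Other genes of the pathway were counted in 4 lists, beside the backgrounds above, which at 24 h of dexamethasone were 13.2% higher and 12.2% lower. Of 35 tested genes of the fusion machinery and its actin regulators, 7 were called higher and 15 lower at day 7, with a list median of -0.14. Tmem182, a muscle membrane protein, rose by 2.75 and Stab2, a phosphatidylserine receptor, by 0.94, although the mean of Stab2 was at most 0.352 TPM in any group. Kirrel (also Kirrel1), the mammalian relative of the fly fusion receptors, fell by 0.84 and Cyfip1, of the WAVE actin complex, fell by 0.80. Under dexamethasone 11 were called higher and 2 lower at 24 h, against 7 and 5 at 72 h (8 and 7 without both replicate 1 libraries). Adam12 rose by 0.65 and Stab2 by 1.41 (from 0.0776 to 0.352 TPM) at 24 h, whereas Kirrel3 fell by 1.97 and the cadherin co-receptor Cdon fell by 0.58. At 72 h Adam12 (0.83) and Arhgap26 (0.58) were higher and Elmo1 (-1.31), of the Dock-Rac module, and Kirrel3 (-1.13) were lower.

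Of 25 tested adhesion molecules and catenins, 7 were called higher and 10 lower at day 7. Itga9 (1.93) and Cdh13 (1.37) rose most, and L1cam (-2.34) and Alcam (-2.15), both immunoglobulin-family molecules, fell most. Dexamethasone gave 6 higher and 4 lower at 24 h, led by Nectin1 (0.77) and Ctnna3 (0.59, from 0.0554 to 0.133 TPM) and by Vcam1 (-0.67) and Igsf8 (-0.57). At 72 h 6 were higher and 6 lower (6 and 4 without both replicate 1 libraries), with Alcam (1.85) and L1cam (0.92) above vehicle and Cdh11 (-1.72) and Itga9 (-0.87) below it.

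Of 26 tested genes of membrane repair and caveolae, 6 were called higher and 12 lower at day 7. Trim72, the repair protein MG53, rose by 3.06 and Cavin4, the muscle cavin, by 2.05, while Fer1l6 (-1.50, at 0.114 TPM or less) and Anxa2 (-1.04) were lower. At 24 h of dexamethasone 6 were higher, Ehd3 (2.02) and Anxa4 (0.72) most, and 2 lower, Cav2 (-0.78) and Cav1 (-0.70). At 72 h 10 were higher and 2 lower (12 and 2 without both replicate 1 libraries), and the list median was 0.20, against 0.0056 over all genes. Anxa4 (0.68) and Anxa2 (0.49) were the highest of these, and Capn3 (-0.53) and Cavin4 (-0.22) were the lower ones. Cavin4 was not called without both replicate 1 libraries (-0.16; adjusted p = 0.229), whereas each other gene named here for 72 h of dexamethasone in these lists was.

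Of 25 tested myogenic regulators, 6 were called higher and 13 lower at day 7. Mef2c (2.78) and Myog (2.48), whose products bind muscle promoters, rose most, and Id3 (-1.41) and Myf5 (-1.25) fell most. Under dexamethasone 7 were higher and 2 lower at 24 h, and 5 and 7 at 72 h (4 and 8 without both replicate 1 libraries). Myf6 (2.10 and 2.61) and Myf5 (1.85 and 1.83) led the higher ones at both times. Heyl (-0.99 and -1.87) was lower at both, with Hes1 (-0.60) at 24 h and Pax7 (-0.99) at 72 h. Between the vehicle times Nfix (0.36) was the 1 regulator called, also without both replicate 1 libraries (0.41; adjusted p = 0.0456). No gene of the other 3 lists was called, and 2 of the fusion machinery were higher without those libraries.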

How the data were processed

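Per the labels' protocols, total RNA was made into stranded poly(A) libraries. The submitters' processing notes name Salmon, DESeq, kallisto 0.51.1 and GRCm39, with no roles given. The authors deposited TPM, which sum to 1000000 in each library, and log2-scale values from -2.33 to 20.06 whose normalization is not given in the sources used here. Neither holds counts, so sequencing depth is unknown. Between 12428 and 13030 genes per library reached 1 TPM. Symbols matched 48291 of 48544 identifiers.

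The log2 values were tested with limma 3.58.1 (R 4.3.3; trend, 1 mean per group, all 24 libraries) over genes with 2^value of at least 10 in at least 4 libraries. This model was first tested on simulated data with independent noise in each library. That simulation does not cover libraries that deviate together. Alternatives were log2(TPM + 0.1) and log2(TPM + 1) over 15250 genes, no filter, a floor of 50, quantile normalization, only the groups compared, the replicate block, each library left out, and both replicate 1 libraries at 72 h left out (for list counts and correlations, added after seeing the data). Ratios used log2((TPM + 0.1)/(TPM + 0.1)).

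Same-numbered libraries deviated together between day 7 and day 0 (r 0.145 to 0.212) and between dexamethasone and vehicle at 24 h (0.201 to 0.391). In both, 4 of 4 libraries were nearest to their own number. At 72 h (0.117 to 0.338) 3 of 4 were, and different numbers reached an r of 0.162. These numbers were taken to pair, less clearly at 72 h. The reported limma fit and the permutation tests do not use the pairing, which enters only alternatives and counts of same-numbered libraries. Members, lists and alternatives were chosen with earlier results of these data known. Named list genes are the 2 called with the largest rise and the 2 with the largest fall per list and comparison. Named like genes are those ranked highest by Pearson's r among genes with a symbol that is not a predicted-gene name.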

Additional observations from a re-analysis of the deposited data

Results flagged for a closer look

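In 60 groups of 4 values, 3 had a single library far from the others, where chance gives about 1 in 20. Mymk in day 7 replicate 3 was at 888 TPM, above the other 3 libraries at 683 to 693. Under dexamethasone at 72 h, replicate 1 was low for Ncam1, at 596 TPM, and for Dysf, at 17.7 TPM. For Myof the dexamethasone response differed between 72 h and 24 h by 0.46 on the log2-table scale (limma adjusted p = 0.0379 in the interaction test).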

How the results depend on the processing

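The number of the 10 genes called between dexamethasone and vehicle at 24 h was 0 in the reported fit, 1 after quantile normalization, 2 with only the groups compared and 1 with the replicate block, and 0 to 1 on leaving out single libraries. In the interaction the number was 1, and 0 by log2(TPM + 0.1), log2(TPM + 1), no filter or only the groups compared, 2 without both replicate 1 libraries, and 0 to 3 on leaving out single libraries. In the other 4 comparisons these counts stayed within 1.5 times. In the fit on TPM the median of all genes was -0.124 in the interaction and 0.134 in vehicle 72 h minus 24 h. In the log2 table these medians were -0.00479 and 0.00275. The share higher among called genes was 51.8% in the log2 table and 64.8% by TPM for dexamethasone at 24 h, 49.1% and 36.2% for the interaction and 61.2% and 81.1% for vehicle 72 h minus 24 h.

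The number of all genes called at 24 h of dexamethasone was 4134 and ranged from 2706 to 4358 on leaving out single libraries. It was 34 for vehicle 24 h minus day 7, and 4, 5, 4, 0 and 109 by log2(TPM + 0.1), log2(TPM + 1), no filter, only the groups compared and the replicate block, and 0 to 328 on leaving out single libraries. For vehicle 72 h minus 24 h it was 709, and 270, 264, 94, 4 and 1067 under the same 5 settings, 380 without both replicate 1 libraries, and 2 to 1751 on leaving out single libraries. The cause was not tested. Numbers do not pair in the 2 vehicle comparisons (r -0.0142 to 0.492 and -0.249 to 0.565, with 1 and 2 of 4 libraries nearest to their own number). The replicate block changed no call of a member other than that of Jam3 at 24 h.

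Differences near 0 changed sign. Without both replicate 1 libraries at 72 h, dexamethasone minus vehicle was 0.063 for Mymk and 0.077 for Mymx. On leaving out single libraries, Mymk at 72 h ranged from -0.089 to 0.082, Mymx from -0.076 to 0.11 and Cdh2 from -0.13 to 0.10, and at 24 h Cdh2 from -0.029 to 0.12 and Dysf from -0.017 to 0.098. The log2 ratio of Mymx to Mymk between day 7 and day 0 was -0.047 with a pseudocount of 1 and -0.0055 to 0.20 on leaving out single libraries, and at 72 h of dexamethasone -0.017 to 0.041. That of Cdh15 to Cdh2 between day 7 and day 0 ranged from -0.12 to 0.22, and that of Dysf to Myof between the vehicle times from -0.11 to 0.12. Depth is unknown, so no counting error can be given for low values such as those of Cav3 at day 0.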
